A study of Homo sapiens with 6 samples.

Results

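KRT8, KRT18, KRT19, VIM, FN1 and TWIST1 are 6 genes commonly read as markers of epithelial or mesenchymal cells, and their transcript levels were followed here in a leukaemia line. They were taken by name from the 19498 genes of a deposited table of normalised counts, in which the first-column Ensembl identifiers were mapped to symbols, and all 6 were found. They were chosen with their values in ACK KO against WT libraries already known, so their differences between genotypes are a description and carry no test.

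RNA from K562, a human line from a chronic myeloid leukaemia with the BCR::ABL1 fusion and with erythroid and megakaryocytic features, was sequenced as polyadenylated RNA. There were 3 biological replicates with the genotype label ACK KO and 3 with the label WT, 6 libraries in all, and both genotypes are K562 cells grown in the same medium with fetal bovine serum. ACK is a Cdc42-binding tyrosine kinase encoded by TNK2, and the series was built around its part in STAT5-driven transcription. The labels do not say how the knockout was made or whether its 3 replicates came from 1 clone. Effects of genotype and of clone therefore cannot be told apart, and the spread behind each p-value is that among these libraries and may be technical.

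Keratins are intermediate filament proteins that assemble only as pairs of a type II with a type I chain. KRT8 (type II) and KRT18 (type I) form the pair of simple epithelia, and KRT19 is a further type I chain that can also pair with KRT8. Vimentin, the product of VIM, is a type III protein that builds filaments by itself and is the usual intermediate filament of mesenchymal and blood cells. Fibronectin, the product of FN1, is a secreted matrix glycoprotein bound by integrins, and TWIST1 is a basic helix-loop-helix transcription factor best known for switching on mesenchymal genes in development and carcinoma.

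The 3 keratins and vimentin are related in sequence, which bears on how well their reads can be told apart. The 60 coding bases that end at the conserved close of the rod domain are shown for the type I chains KRT18 and KRT19, read from GENCODE 29 transcripts, with the processed pseudogene KRT18P5 beside its parent. Capitals mark the bases that differ from KRT18 at the same place.
KRT18: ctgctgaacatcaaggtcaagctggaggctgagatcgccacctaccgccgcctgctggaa
KRT18P5: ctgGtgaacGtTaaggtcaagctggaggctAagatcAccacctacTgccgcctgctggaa
KRT19: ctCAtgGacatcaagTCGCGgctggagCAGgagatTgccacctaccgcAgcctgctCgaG
In this stretch KRT18P5 differed from KRT18 at 6 of 60 bases, against 15 for KRT19. Over the whole coding sequence KRT18 and KRT19 were 58.1% identical in a global alignment and KRT8 and VIM 54.6%. The pseudogenes are closer: KRT18P5 was 91.6% identical to the KRT18 transcript and KRT8P12 86.1% to that of KRT8, over the aligned bases. Of all the 31-base stretches of a transcript, 51.1% for KRT8, 60.4% for KRT18 and 11.4% for KRT19 also occur in transcripts of other genes, against 0.272% for VIM and 0 for FN1 and TWIST1. The sources used here do not give how such reads were counted, so the values of KRT8 and KRT18 are less certain than those of FN1 and TWIST1.

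The TNK2 transcript level did not separate the labels, and it is no check of whether the protein was lost. TNK2 had 741, 506 and 598 normalised counts in ACK KO libraries and 829.7, 613 and 642 in WT libraries (exact two-sided permutation p = 0.4, where 3 against 3 libraries can give no less than 0.1). The values of a library summed to between 43478033 and 49450552 in ACK KO and between 46690187 and 53301879 in WT. The reads behind these values are unknown, so the only error given is the spread between libraries. On the second principal component, with 26.8% of the variance, both replicate 1 libraries stood apart from replicates 2 and 3. All 13 of 13 erythroleukaemia markers listed for K562, among them GATA1, KLF1 and TFRC, were above the low-value filter (at least 3 libraries at 10 or above), with summed values of 86407 to 105416 in ACK KO and 75428 to 106028 in WT libraries. In a bulk sample fewer cells of a type and less RNA per cell cannot be told apart.

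TWIST1 was the lowest of the 6 genes in ACK KO libraries and was clearly present in WT libraries. TWIST1 (ENSG00000122691.13; chromosome 7, 19020991 to 19117672, minus strand, GRCh38) had 19.5, 18.3 and 25.7 normalised counts in ACK KO libraries and 806, 689.6 and 761 in WT libraries. The groups were far apart, with the highest ACK KO library well below the lowest WT one. Means were 21.2 ± 3.97 in ACK KO and 752 ± 58.5 in WT (SD, n = 3 each). The log2 difference, ACK KO minus WT, was -5.10 (SE 0.24), or 34.3-fold lower, where folds are on the log2(value + 1) scale and so understate changes of low genes. The difference was the 154th in size among 16658 tested genes, and the 3 replicate numbers gave -5.30, -5.16 and -4.83 when taken one by one.

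KRT19 went the other way. KRT19 (ENSG00000171345.13; chromosome 17, 41523617 to 41528308, minus strand) had 3069.9, 2207 and 2419.5 normalised counts in ACK KO libraries and 358, 163 and 194 in WT libraries. All ACK KO libraries were above all WT libraries, and replicate 1 was the highest of its genotype in both. Means were 2565 ± 449.6 in ACK KO and 238 ± 105 in WT (SD, n = 3 each), a log2 difference of 3.49 (SE 0.31), 11.3-fold higher. By replicate number the ACK KO value was 8.58, 13.5 and 12.5 times the WT value.

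KRT8 was higher in ACK KO libraries while its partner KRT18 overlapped between genotypes. KRT8 (ENSG00000170421.12; chromosome 12, 52897187 to 52949954, minus strand) had 8927, 13076 and 14196 normalised counts in ACK KO libraries and 4608, 5158 and 5770.3 in WT libraries. The groups did not overlap, the means being 12066 ± 2775 in ACK KO and 5179 ± 582 in WT (SD, n = 3 each), with a log2 difference of 1.20 (SE 0.20), 2.29-fold higher. KRT18 (ENSG00000111057.11; chromosome 12, 52948871 to 52952901, plus strand) had 7718, 11413 and 10971 in ACK KO libraries and 5787, 10881 and 9388 in WT libraries. Replicate 1 was the lowest of its genotype in both, and the ranges of the genotypes overlapped. The KRT18 means were 10034 ± 2018 in ACK KO and 8685 ± 2619 in WT (SD, n = 3 each), a log2 difference of 0.24 (SE 0.27; 95% interval -0.41 to 0.88), and without WT replicate 1 it was -0.03. The annotated spans of KRT8 and KRT18 overlap by 1084 bases on opposite strands, and the libraries were stranded per the labels.

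VIM, the most abundant of the 6 genes, was modestly higher in ACK KO libraries. VIM (ENSG00000026025.16; chromosome 10, 17228259 to 17237593, plus strand) had 51387, 59296 and 55269 normalised counts in ACK KO libraries and 40226, 40077 and 43575 in WT libraries. The groups did not overlap, but the gap between them was small beside the level. Means were 55317 ± 3955 in ACK KO and 41293 ± 1978 in WT (SD, n = 3 each), a log2 difference of 0.42 (SE 0.13), 1.34-fold higher.

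FN1 was lower in ACK KO libraries. FN1 (ENSG00000115414.19; chromosome 2, 215360440 to 215436172, minus strand) had 3358, 3207 and 2376 normalised counts in ACK KO libraries and 7420.3, 5343 and 5435 in WT libraries. No ACK KO library reached the lowest WT library, and WT replicate 1 stood above the other WT libraries. Means were 2980.5 ± 529 in ACK KO and 6066 ± 1174 in WT (SD, n = 3 each), a log2 difference of -1.02 (SE 0.20), 2.03-fold lower, and by replicate number it was -1.14, -0.74 and -1.19.

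**Figure D1:**
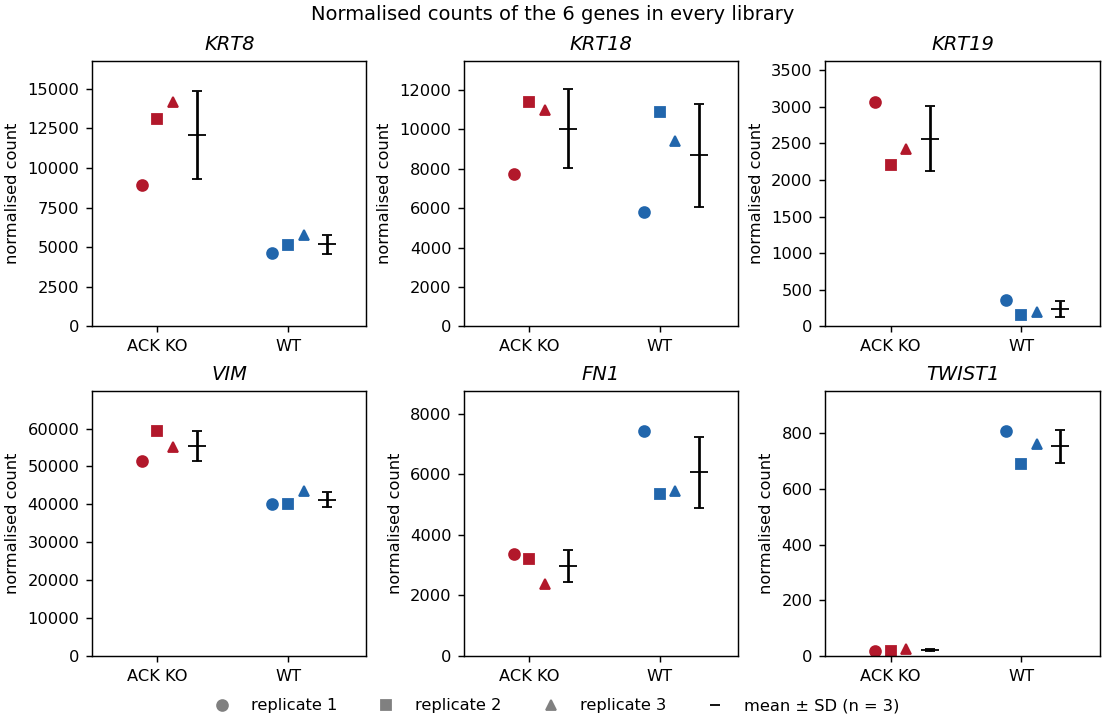
Normalised count (linear axis from 0) of each gene in the 3 ACK KO libraries (red, left) and the 3 WT libraries (blue, right); marker shapes give the replicate number and the black bars the mean ± SD. TWIST1 lies between 18.3 and 25.7 in ACK KO and between 689.6 and 806 in WT, while the libraries of KRT18 overlap.

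Across the 6 genes, 4 passed an adjusted p of 0.05 in the fit over all genes (limma, Benjamini-Hochberg), KRT8 and KRT19 higher and FN1 and TWIST1 lower. The same threshold was passed by 10.3% of all genes tested, 5.37% higher and 4.96% lower. Since the genes were chosen on this contrast, nothing is read from their count, here or under the other settings. All 4 both passed this threshold and differed at least 2-fold, and 7.31% of tested genes did both. The groups of libraries did not overlap for 5 of the 6, against 30.0% of tested genes. With the replicate number as a block KRT18 and VIM also passed, in a fit in which 39.7% of tested genes did, 19.7% higher and 20% lower. The count of 4 itself moved with the libraries used. KRT8 was not in it without ACK KO replicate 2 (log2 difference 1.13) or 3 (1.07), and FN1 was not without ACK KO replicate 2 (-1.09) or 3 (-0.87) or WT replicate 2 (-1.11) or 3 (-1.10). With libraries rescaled to equal sums FN1 left the count (-0.92) and VIM entered it (0.52).

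**Figure D2:**
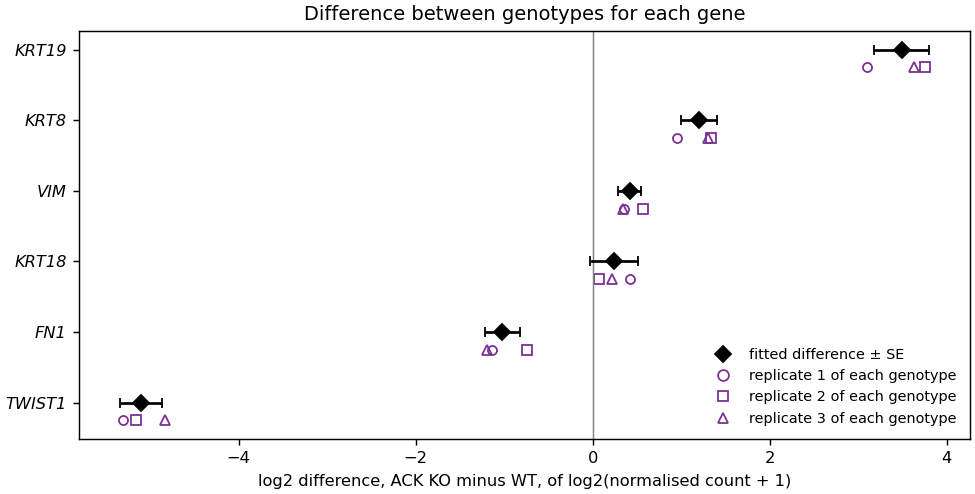
Log2 difference, ACK KO minus WT, of log2(normalised count + 1) for each gene: the fitted value with its standard error (black diamonds) and the difference within each replicate number (open symbols). KRT19 lies at 3.49 and TWIST1 at -5.10, and for each of the 6 genes the 3 replicate numbers fall on the same side of 0.

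For KRT8, KRT18, KRT19 and FN1 replicate 1 lay outside replicates 2 and 3 in the same direction in both genotypes. On the log2 scale KRT18 was lower in replicate 1 than in the mean of replicates 2 and 3, with differences of -0.54 in ACK KO and -0.80 in WT. The same difference was -0.61 in ACK KO and -0.24 in WT for KRT8. KRT19 was higher in replicate 1 by 0.41 in ACK KO and 1.00 in WT, and FN1 by 0.28 in ACK KO and 0.46 in WT. VIM differed by -0.16 in ACK KO and -0.05 in WT, where replicate 1 lay between the others. TWIST1 had opposite signs, -0.15 in ACK KO and 0.15 in WT. The labels do not say what the replicate numbers stand for. When both replicate 1 libraries were dropped, which was decided after seeing where they lay, the log2 differences, ACK KO minus WT, were 1.32 for KRT8, 0.15 for KRT18, 3.69 for KRT19, 0.45 for VIM, -0.96 for FN1 and -5.0 for TWIST1.

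Levels can be set side by side between genes only per length, here as normalised counts per kb of transcript. The length is the mean over a gene's best-graded (APPRIS) transcripts, 3 for KRT8, 2 each for KRT18 and VIM and 1 for the others. In ACK KO libraries VIM had 27638 ± 1976 per kb, KRT18 6729.5 ± 1353, KRT8 6281 ± 1445, KRT19 1846 ± 323, FN1 377 ± 67.0 and TWIST1 12.7 ± 2.39 (SD, n = 3). In WT libraries VIM had 20631 ± 988 per kb, KRT18 5825 ± 1756, KRT8 2696 ± 303, FN1 768 ± 149, TWIST1 451 ± 35.1 and KRT19 171 ± 75.2 (SD, n = 3). KRT18 and KRT8 overlapped in ACK KO libraries, so their order there is not settled, and the ranges of all other neighbours in either order were separate. KRT19 was thus the lowest of the 6 in WT and the fourth in ACK KO, and TWIST1 took the last place. Among 13771 protein-coding genes VIM ranked 89th per kb in ACK KO and 128th in WT, KRT19 1777th in ACK KO and 8701st in WT, and TWIST1 11740th in ACK KO and 6168th in WT.

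**Figure D3:**
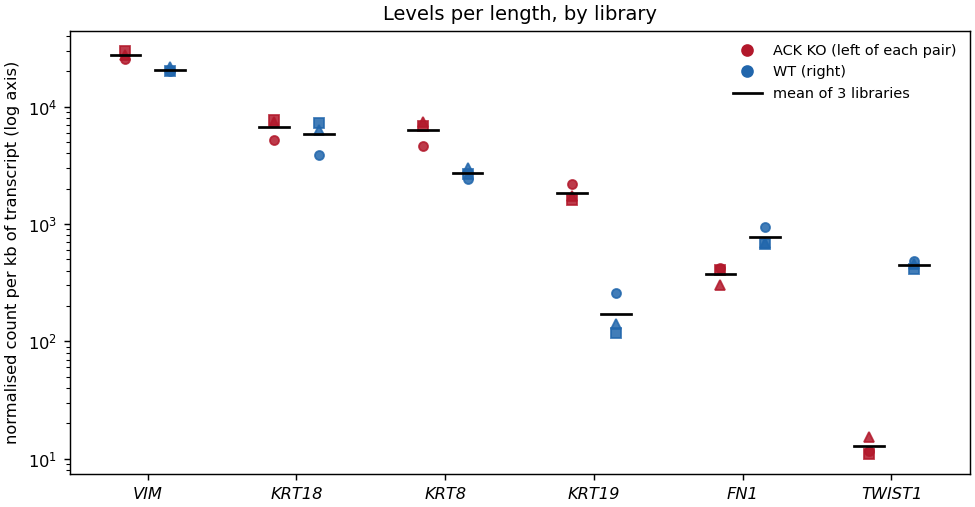
Normalised count per kb of transcript (log axis) for each gene, ordered by its ACK KO mean. ACK KO libraries are in red on the left and WT libraries in blue on the right of each pair. Bars are means of 3 libraries. KRT19 had 1846 per kb in ACK KO and 171 in WT, and TWIST1 had 12.7 in ACK KO and 451 in WT.

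Ratios taken within a library do not depend on how libraries were scaled if a single factor was applied to each library, which is not known here. Per kb, KRT8 over KRT18 was 0.898, 0.889 and 1.00 in ACK KO libraries and 0.618, 0.368 and 0.477 in WT libraries. The ratio was therefore near 1 in each ACK KO library and lower in each WT library. KRT19 made up 29.9%, 17.2% and 19.1% of the summed KRT18 and KRT19 level in ACK KO libraries and 6.22%, 1.58% and 2.17% in WT libraries. KRT8 over the sum of KRT18 and KRT19 averaged 0.726 ± 0.0919 in ACK KO and 0.469 ± 0.109 in WT (SD, n = 3 each), again without overlap. VIM made up 65.2% ± 2.75 of the summed VIM, KRT8, KRT18 and KRT19 level in ACK KO and 70.6% ± 4.55 in WT (SD, n = 3 each), and there the libraries overlapped.

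Keratin pseudogenes were scarce beside their parents. The table holds 5 processed pseudogenes of KRT8, 3 of KRT18 and 0 of KRT19. Of the 6 above the low-value filter 0 passed an adjusted p of 0.05 (limma), 0 with the replicate block, and 0 had an unadjusted p under 0.05. Over all tested genes 10.3% passed, and 39.7% did with the block. Pseudogenes made up 1.54% to 6.05% of the summed value of KRT8 and its pseudogenes in a library, and 1.73% to 3.3% for KRT18. KRT18P5, the most abundant, had 184, 185 and 195 normalised counts in ACK KO libraries and 184, 242 and 211 in WT libraries, a log2 difference of -0.17 (SE 0.20). KRT8P12 had 126, 133 and 192 in ACK KO libraries and 189.6, 204 and 227 in WT libraries, a log2 difference of -0.48 (SE 0.25), with overlap between the genotypes. KRT8P33 had 37.8, 18 and 18.9 in ACK KO libraries and 40.2, 30 and 36.8 in WT libraries, and KRT8P39 had 30.3, 33.7 and 24.9 in ACK KO libraries and 37.3, 41.1 and 32.3 in WT libraries, with overlap for both. Summed with its pseudogenes, KRT8 had a log2 difference of 1.14 and KRT18 of 0.23. VIM-AS1, an antisense gene whose annotated span overlaps VIM by 1727 bases, had 659, 553 and 626 normalised counts in ACK KO libraries and 669, 480.1 and 675 in WT libraries. Its log2 difference was 0.02 (SE 0.19), with an adjusted p of 0.957 (limma), beside 0.42 for VIM.

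The 5 nearest genes of the table on each side of a gene were taken as its neighbours. Around TWIST1, 10 of 10 neighbours were tested, and 1 rose and 3 fell. Over all tested genes 10.3% passed, and with the block 6 of the 10 neighbours passed, against 39.7% of all genes. The median log2 difference of the neighbours was -0.07, and that of the 834 tested genes of chromosome 7 was 0.39. AHR, the aryl hydrocarbon receptor gene, fell to 329, 250 and 312 normalised counts in ACK KO libraries, against 2168, 1881 and 2305 in WT libraries (log2 difference -2.83, SE 0.17; adjusted p 0.00024, limma). MACC1, a gene linked to metastasis of colon cancer, rose to 3483, 2968 and 3001 in ACK KO libraries, against 1033, 1182 and 1248 in WT libraries (log2 difference 1.45, SE 0.14; adjusted p 0.00141, limma). The other falls were of ENSG00000223838 and ENSG00000237773. ENSG00000223838 was listed at 0 in all 3 ACK KO libraries and at 16.2, 12.8 and 10 in WT libraries. ENSG00000237773 had an adjusted p of 0.0295 (limma). It passed in 1 of the 6 fits without 1 library, with an adjusted p up to 0.116 without WT replicate 3. Both genes reached 10 only in WT libraries, so they passed the filter through WT alone and their direction was set by it. HDAC9, a histone deacetylase gene whose span ends 18.6 kb from that of TWIST1, had 14.5, 3.79 and 24 in ACK KO libraries and 148, 51.7 and 62.2 in WT libraries. The groups did not overlap, with an adjusted p of 0.0596 and of 0.00383 with the replicate block (limma). ACK KO replicate 2 was below 10, so HDAC9 needed the WT libraries, where it was high, to pass the filter.

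Around FN1, 1 of 8 tested neighbours passed, and 4 did with the block. Beside these counts and those below, 10.3% of all tested genes passed, and 39.7% did with the block. SPAG16, which encodes a protein of the sperm flagellum axoneme, rose to 532, 479 and 541 normalised counts in ACK KO libraries, against 52.9, 38.9 and 30.2 in WT libraries (log2 difference 3.67, SE 0.27; adjusted p 0.000485, limma). The further FN1 neighbours past the threshold with the block were BARD1, ATIC and XRCC5, with log2 differences of -0.41, -0.31 and -0.30. Around KRT19, KRT222 passed among 7 tested, with 2 past the threshold with the block, and KRT15, the keratin gene 1.09 kb away, had 2.26, 3.47 and 8.5 in ACK KO libraries and 15.9, 12 and 9.85 in WT libraries, below the filter. Around KRT18, 1 of 9 tested passed, which was KRT8 itself, and 4 did with the block. Around KRT8 and around VIM 0 of 9 tested passed (limma), with 1 at KRT8 and 3 at VIM at an unadjusted p under 0.05 and 4 at KRT8 and 3 at VIM past the threshold with the block. The median log2 differences of the neighbours were -0.13 at FN1, 0.06 at KRT19, 0.53 at KRT18, 0.29 at KRT8 and -0.10 at VIM. KRT8 and KRT18 are neighbours of each other and share most of their other neighbours, so their counts and medians are not separate results.

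**Figure D4:**
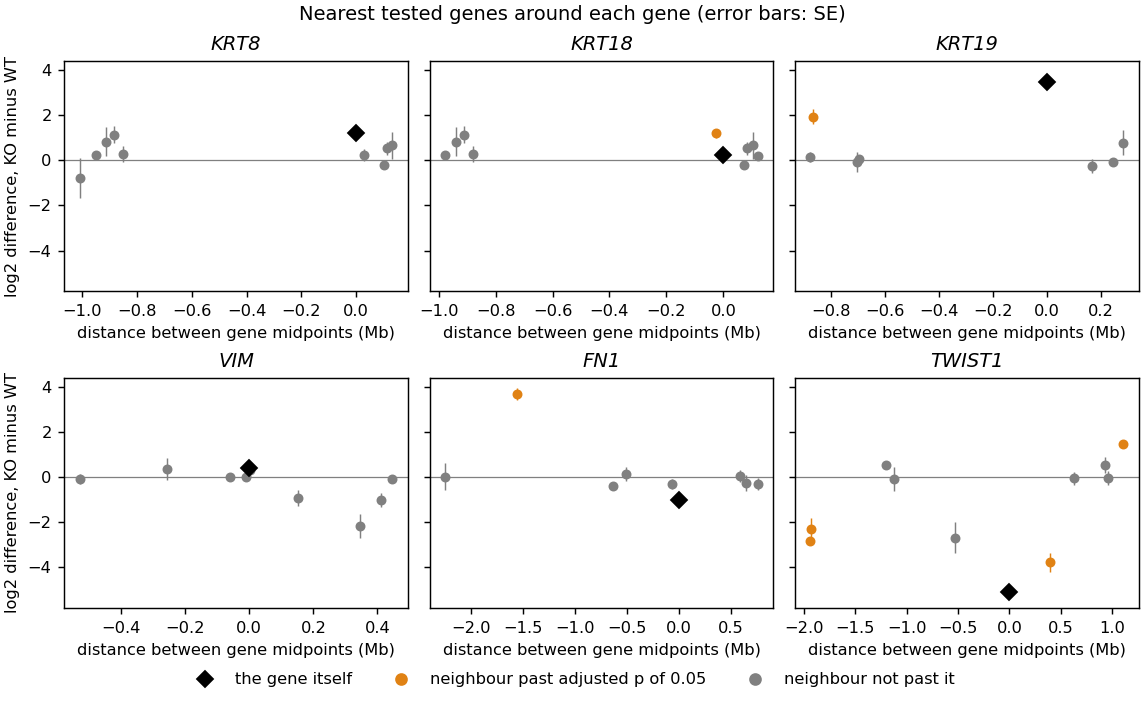
Log2 difference, ACK KO minus WT, with its standard error, of each gene (black diamond) and of its nearest tested genes, 5 table genes on each side, against the distance between gene midpoints in Mb; orange points passed an adjusted p of 0.05. TWIST1 has both AHR at -2.83 and MACC1 at 1.45 among its neighbours, while no neighbour of VIM is orange.

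The FN1 promoter is shown because a cyclic AMP response element and GC boxes there are the textbook control elements of this gene, which was lower in ACK KO libraries. The 250 bases upstream of its start are from RefSeq (GRCh38.p14, chr2:215436069-215436318, minus strand), and the start is also that of the GENCODE principal transcript. Capitals mark matches to TGACGTCA, the response element, and to GGGCGG, the GC box, on either strand.
FN1: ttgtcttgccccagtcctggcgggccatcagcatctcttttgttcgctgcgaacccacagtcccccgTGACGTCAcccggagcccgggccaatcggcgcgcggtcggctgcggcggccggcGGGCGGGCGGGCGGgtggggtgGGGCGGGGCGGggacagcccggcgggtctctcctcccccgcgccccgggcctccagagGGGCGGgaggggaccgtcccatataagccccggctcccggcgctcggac
TGACGTCA occurred 1 time, from -183 to -176, and in 1.65% of 35116 promoter windows of this length. GGGCGG occurred 6 times, several of them overlapping, and was found in 42.6% of windows. No match was found to the STAT motif TTCNNNGAA (6.57% of windows), the AP-1 motif TGANTCA (6.57%), the E-box CANNTG that TWIST1 and its partners bind (61.8%), CCGGAA (14.5%) or TATAAA (10.7%), each searched on both strands. A match is a string of letters and does not show binding. Only these strings were searched, so the lack of a match does not show that a looser form of the element is absent.

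Few other keratins could be described. Of 52 further keratin genes listed, 3 were in the table and 49 were not analysed here. Of the 2 that passed the low-value filter 1 rose and 0 fell, where 10.3% of all tested genes passed an adjusted p of 0.05. KRT222, a type I keratin-like gene, rose to 111, 64.7 and 80.8 normalised counts in ACK KO libraries, against 22.5, 18.6 and 22.1 in WT libraries (log2 difference 1.94, SE 0.32; adjusted p 0.0117, limma). Its adjusted p was 0.0619, 0.0511 and 0.054 (limma) in the fits that left out ACK KO replicate 3, WT replicate 2 and WT replicate 3. KRT10 had 1685, 3377 and 3171 in ACK KO libraries and 1494, 3867 and 3729 in WT libraries, with overlap and a log2 difference of -0.09 (SE 0.44).

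Among 14 tested genes of other intermediate filaments and of the linkers that tie them to junctions and to the cytoskeleton, 2 rose, 1 fell and 11 did not pass, a share of 21.4% against 10.3% of all genes. The median log2 difference was -0.24, and -0.02 over all genes. NES, which encodes nestin, a filament protein that assembles with vimentin, rose to 907, 791 and 972 normalised counts in ACK KO libraries, against 328, 319.8 and 396 in WT libraries (log2 difference 1.35, SE 0.17; adjusted p 0.00453, limma). Its groups were well separated, and it passed in each fit without 1 library. INA, the neuronal filament gene for alpha-internexin, rose to 65.1, 49.2 and 64.3 in ACK KO libraries, against 5.77, 10.8 and 16.8 in WT libraries (adjusted p 0.0163, limma). PLEC, the gene of plectin, the main linker of vimentin and keratin filaments, fell to 7401, 5176 and 7183 in ACK KO libraries, against 11355, 10829 and 11548 in WT libraries (adjusted p 0.0272, limma). The INA call was lost without ACK KO replicate 1, 2 or 3 or WT replicate 2 (adjusted p 0.052 to 0.0826, limma). WT replicate 1 was below 10, so INA needed the ACK KO libraries, where it was high, to pass the filter. The PLEC call was lost without ACK KO replicate 2 or 3 or WT replicate 2 or 3 (0.0569 to 0.118), with equal sums (0.0774) and with no intensity trend (0.0561). LMNB1, the lamin B1 gene, had 6257, 8975 and 8727 in ACK KO libraries and 10893, 12935 and 13704 in WT libraries, with an adjusted p of 0.0676 and of 0.000485 with the block (limma). With the block 3 genes of the list rose and 5 fell, in a fit in which 39.7% of all tested genes passed.

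Genes of epithelial junctions and their regulators had 0 rises and 1 fall among 17 tested, 5.88% against 10.3% of all genes, with a median log2 difference of 0.09. MUC1, a transmembrane mucin gene, fell to 569.7, 676 and 635 normalised counts in ACK KO libraries, against 1049, 1626 and 1378 in WT libraries (log2 difference -1.09, SE 0.20; adjusted p 0.0169, limma). The call was lost in each fit without 1 library other than that without WT replicate 1, with adjusted p-values of 0.0518 to 0.0852 (limma). GRHL1 and PKP2, which encode an epithelial transcription factor and a desmosome protein, had log2 differences of 1.15 and 0.35, with adjusted p-values of 0.173 and 0.237, against 0.004 and 0.0187 with the block (limma). With the block 4 genes rose and 2 fell, in a fit in which 39.7% of all tested genes passed. CDH1, the E-cadherin gene, was below the filter, with 6.59, 0 and 1.25 in ACK KO libraries and 13.0, 3.11 and 2.26 in WT libraries. EPCAM, an epithelial adhesion gene, had 5002, 4613 and 5153 in ACK KO libraries and 4344, 5171 and 4857 in WT libraries (log2 difference 0.04, SE 0.12).

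The transcription factors grouped with TWIST1 in epithelial-mesenchymal transition, and the E-proteins it pairs with, had 0 rises and 1 fall among 13 tested, 7.69% against 10.3% of all genes, with a median log2 difference of -0.08. TCF12, the gene of the E-protein HEB, fell to 4559, 4193 and 5000.2 normalised counts in ACK KO libraries, against 7035, 6822 and 6929 in WT libraries (log2 difference -0.60, SE 0.12; adjusted p 0.0214, limma). That call was lost in each fit without 1 library but the one without WT replicate 1 (adjusted p 0.0558 to 0.104, limma), with libraries rescaled to equal sums (0.0636) and with no intensity trend (0.0544). TCF4, a second E-protein gene, had a log2 difference of 0.43, KLF8 of 1.29 and ID2, whose product blocks E-proteins, of 0.79. Their adjusted p-values were 0.0989, 0.12 and 0.17, against 0.00487, 0.00155 and 0.0104 with the block (limma). The other tested ID genes, ID1 and ID3, had log2 differences of 0.72 and -1.28. Adjusted p-values of ID1 and ID3 were 0.56 and 0.187, against 0.00263 and 0.00245 with the block (limma). SNAI1 and ZEB1 had log2 differences of -0.22 and -0.08, and their adjusted p-values were 0.603 and 0.841, against 0.333 and 0.431 with the block (limma). ZEB2 had 3091, 3616 and 3915 normalised counts in ACK KO libraries and 3949, 4515 and 4747 in WT libraries, without overlap. Its log2 difference was -0.32 (SE 0.14), with an adjusted p of 0.237, against 0.0073 with the block (limma). With the block 4 genes rose and 5 fell, in a fit in which 39.7% of all tested genes passed.

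Further mesenchymal genes moved both ways, with 1 rise and 1 fall among 7 tested, 28.6% against 10.3% of all genes, and a median log2 difference of -0.29. AXL, a receptor tyrosine kinase gene, rose to 1084, 865 and 928 normalised counts in ACK KO libraries, against 214, 177 and 196 in WT libraries (log2 difference 2.29, SE 0.18; adjusted p 0.00064, limma), and passed in each fit without 1 library. CD44, the hyaluronan receptor gene, fell to 8.11, 6.77 and 15.4 in ACK KO libraries, against 40.5, 52.4 and 83.6 in WT libraries. Its log2 difference was -2.45 (SE 0.45), with an adjusted p of 0.0175 (limma). That call was lost without ACK KO replicate 1 or 2 or WT replicate 2 or 3 (adjusted p 0.0531 to 0.0805, limma). Only replicate 3 of its ACK KO libraries reached 10, so CD44 needed the WT libraries, where it was high, to pass the filter. S100A4, a calcium-binding protein gene, had 123, 154 and 186 in ACK KO libraries and 239, 579 and 620.1 in WT libraries, with an adjusted p of 0.0601, and of 0.00149 with the block (limma). MMP14, a membrane metalloproteinase gene, had 219, 211 and 193 in ACK KO libraries and 575, 201 and 259.6 in WT libraries, with overlap. CDH2, the N-cadherin gene, had no more than 12.4 in ACK KO and 13.7 in WT libraries.

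Receptors and matrix partners of fibronectin had 1 rise and 1 fall among 15 tested, 13.3% against 10.3% of all genes, with a median log2 difference of 0.10. ITGA4, the alpha chain of the integrin VLA-4, fell to 1.32, 0 and 0 normalised counts in ACK KO libraries, against 54.9, 55.0 and 79.7 in WT libraries (adjusted p 0.000924, limma). The call held in each fit without 1 library. ITGA4 reached 10 only in WT libraries, so it passed the filter through WT alone and its direction was set by it. SDC2, a heparan sulfate proteoglycan gene, rose to 6785, 7095 and 6751 in ACK KO libraries, against 4217, 4536 and 4596 in WT libraries (log2 difference 0.63, SE 0.11; adjusted p 0.0132, limma), a call lost without ACK KO replicate 2 or 3 or WT replicate 2 or 3 (0.0565 to 0.073). ITGA5 and ITGB1, the chains of the classical fibronectin receptor, had log2 differences of 0.18 (SE 0.16) and -0.10 (SE 0.13). ITGA5 had 3824, 3079 and 2891 in ACK KO libraries and 3313, 2609 and 2682 in WT libraries. FNDC3A had a log2 difference of 0.50 (SE 0.19) and SDC4, another syndecan gene, of 0.43 (SE 0.19), with adjusted p-values of 0.164 and 0.219, against 0.00159 and 0.0236 with the block (limma). With the block 4 genes of the list rose and 1 fell, in a fit in which 39.7% of all tested genes passed.

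Markers of other cell types were listed too. Of 11 fibroblast markers 7 had a value and 4 passed the filter, with 1 rise and 0 falls, 25% against 10.3% of all genes, and their summed values were 363 to 789 in ACK KO and 125 to 388 in WT libraries. COL1A1, a collagen I chain gene, rose to 204, 74.6 and 121 in ACK KO libraries, against 12, 4.68 and 32.2 in WT libraries (adjusted p 0.0334, limma), a call lost without any 1 library other than WT replicate 3 (0.0516 to 0.123). The collagen VI genes COL6A3, COL6A2 and COL6A1 had log2 differences of 1.65, 0.27 and 1.03, with adjusted p-values of 0.0581, 0.891 and 0.287, against 0.00101, 0.405 and 0.0197 with the block (limma). All 4 tested fibroblast markers had positive log2 differences, with a median of 1.34, as did 8057 of the 16658 tested genes. That of COL6A2 was smaller than its SE of 0.83. COL1A1 was below 10 in WT replicate 2, so it needed the ACK KO libraries, where it was high, to pass the filter. With the block 3 of them rose, as did 19.7% of all tested genes. DCN, COL3A1 and PDGFRB, which mark fibroblasts and mural cells, were at or below 11.6 in each of the 6 libraries, and COL1A2, LUM, PDGFRA and THY1 were not analysed here. Of 10 epithelial markers 5 had a value and 2 passed, with summed values of 4623 to 5174 in ACK KO and 4398 to 5182 in WT libraries, nearly all of it EPCAM. ELF3, an epithelial transcription factor gene, had 12.9, 2.4 and 10.6 in ACK KO libraries and 13.5, 3.2 and 3.99 in WT libraries. ESRP1 had 22.2, 1.99 and 1.39 in ACK KO libraries and 5.90, 0 and 0 in WT libraries, and KRT5, KRT7, KRT14, KRT20 and GRHL2 were not analysed here. Of the epithelial markers 0 of 2 tested passed and of the lymphoid ones 0 of 4 (limma), with 0 at an unadjusted p under 0.05 and 0 with the block in either list. Of 8 lymphoid markers 6 were in the table, with sums of 1615 to 3619 in ACK KO and 842 to 3392 in WT libraries. CD3D, a T-cell receptor subunit gene, had 909, 1107 and 1708 in ACK KO libraries and 399.6, 1121 and 1679 in WT libraries, lowest in replicate 1 of both genotypes, and CD3G had 612, 1235 and 1841 in ACK KO libraries and 322, 1216 and 1577 in WT libraries. CD3E did not exceed 31.7 in ACK KO or 56.4 in WT libraries. Of the 13 K562 markers 2 rose and 0 fell, 15.4% against 10.3% of all genes, with a median log2 difference of 0.19. With the block 4 of these markers rose and 2 fell, in a fit in which 39.7% of all tested genes passed. HBE1 and ALAS2, genes of embryonic globin and of haem synthesis, rose. HBE1 had a log2 difference of 3.20 (SE 0.27; adjusted p 0.000784, limma) and ALAS2 of 1.51 (SE 0.29; adjusted p 0.0209). GATA1, the gene of the master erythroid transcription factor, had 6980.5, 7029.8 and 6863 in ACK KO libraries and 9877, 8842 and 8921 in WT libraries, without overlap, with a log2 difference of -0.40 and an adjusted p of 0.0637, against 0.00256 with the block (limma). TFRC, the transferrin receptor gene, had a log2 difference of -0.52 and an adjusted p of 0.447, against 0.0121 with the block (limma), and its groups overlapped. The ALAS2 call was lost without ACK KO replicate 1 or 2 or WT replicate 3 (0.0612 to 0.0834). The part of these marker genes in the values of KRT19, KRT8, VIM and FN1 was not tested.

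**Figure D5:**
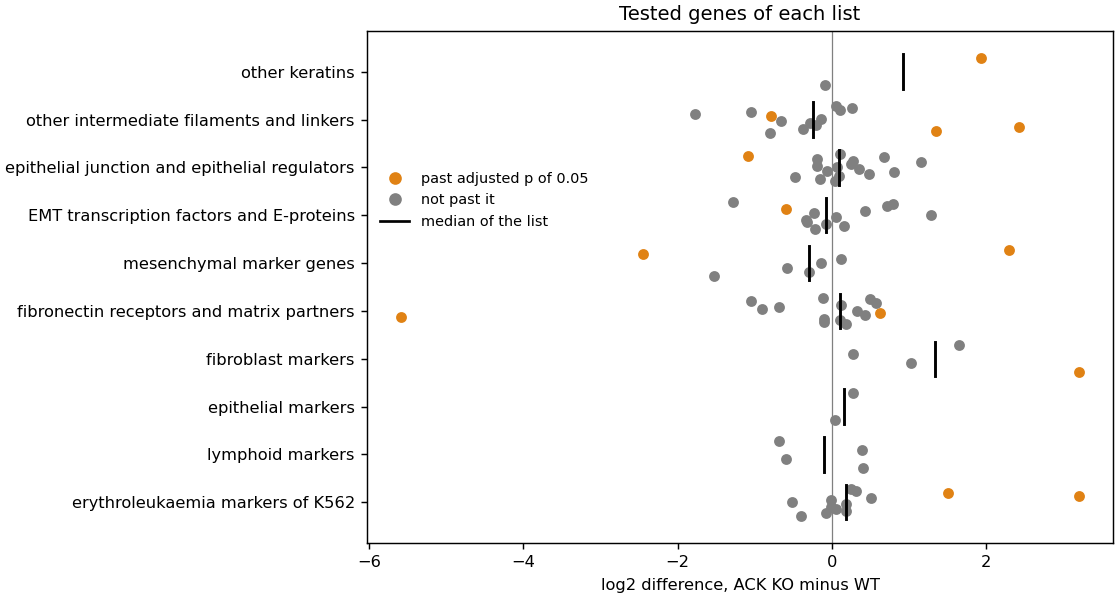
Log2 difference, ACK KO minus WT, of each tested gene of the 10 lists (points; orange where the adjusted p was under 0.05), with the median of each list as a black bar. Most points lie near 0, with ITGA4 far to the left and AXL, COL1A1 and HBE1 to the right.

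The genes whose levels ran most like those of each of the 6 genes were found by Pearson correlation of log2 values over the 6 libraries, among protein-coding genes with a mean of 100 or more. With only 6 libraries in 2 genotypes high values are common, and they are given as a description. TWIST1 ran with PTPRB, TLE4 and SLC4A7 (r 0.9998, 0.9997 and 0.9996), of which TLE4, a Groucho corepressor gene, had 19.1, 18.3 and 22.5 normalised counts in ACK KO libraries and 778, 675 and 697 in WT libraries. KRT19 ran with CCDC74A, RBM20 and SNX9 (r 0.9994, 0.9993 and 0.9984). RBM20, a splicing regulator gene known from heart muscle, had 1410.1, 959 and 932 in ACK KO libraries and 104, 34.6 and 45.0 in WT libraries, with replicate 1 highest in both genotypes as for KRT19. KRT8 ran with LZTS2, TARS3 and GSS (0.9983, 0.9963 and 0.996), and KRT18 with SETMAR, SPG7 and IP6K1 (0.9991, 0.9979 and 0.9977). VIM ran with ZDHHC12, SMG6 and DICER1 (0.996, 0.9901 and 0.9895), and FN1 with LYL1, ZNF799 and TNIP1 (0.9956, 0.9955 and 0.9944).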

How the data were processed

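Values are a signal, deposited by the authors as gene-level normalised counts, not whole and not log transformed. Whether a single factor was applied to each library is not known here. The submitters' processing notes name GRCh38, DESeq2 1.26.0, R 3.6.1, STAR 2.7.2b, Salmon 1.1.0, SAMtools and FastQC 0.11.7, without their roles. Adapters carried molecular identifiers per the labels, and whether these were used is not stated. Steps of whole reads were not found: only 18.1% to 36.3% of low values lay on a common step (tolerance 0.02 of a step). Symbols came from a name table (19392 of 19498 identifiers) and positions and transcript lengths from GENCODE 29 (19112). Depth is unknown.

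The test was limma 3.58.1 (R 4.3.3) on log2(value + 1), with an intensity trend. It covered the 16658 genes at 10 or more in at least 3 of 6 libraries, adjusted by Benjamini-Hochberg with a threshold of 0.05. A check of the test on simulated data drew libraries independently, so it does not cover the pattern shared by same-numbered replicates. The members and lists were chosen with earlier results of these data known. A second fit took the replicate number as a block. The rule set for pairing was met, as deviations from the genotype mean correlated at 0.699, 0.521 and 0.342 between same-numbered libraries, each above 0.1. ACK KO replicate 3 with WT replicate 2 (0.281) and ACK KO replicate 2 with WT replicate 3 (0.257) were also above 0.1. The check sets replicate 1 apart but does not show that replicates 2 and 3 pair by number. Length per gene is the mean of its transcripts of the best APPRIS grade. Sequence identity came from Biopython 1.88 alignments. Named genes are TNK2, the members, the 4 most abundant keratin pseudogenes, VIM-AS1, up to 4 genes per list by smallest p (by level for marker lists), neighbours past the threshold and the 3 genes most alike. Other genes were named after their values were seen. A few genes and sequences are not reported here.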

Additional observations from a re-analysis of the deposited data

How the results depend on the processing

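The log2 differences of KRT8, KRT19, VIM, FN1 and TWIST1 kept their sign under every alternative run, and KRT18 changed sign only without WT replicate 1. Leaving out 1 library gave 1.07 to 1.40 for KRT8, -0.03 to 0.42 for KRT18, 3.26 to 3.83 for KRT19, 0.37 to 0.47 for VIM, -1.12 to -0.87 for FN1, -5.24 to -5.01 for TWIST1 and -0.32 to -0.05 for TNK2. VIM was at 0.52, and past the threshold, when libraries were rescaled to equal sums, which moved the median of all genes to 0.08 from -0.02, and FN1 was then at -0.92 and not past it. TWIST1 was at -4.86 with a pseudocount of 5. The count of genes called was 1721 (10.3% of 16658 tested). Of the same 16658 genes, 6612 (39.7%) were called with the replicate block, 4731 without both replicate 1 libraries and 726 to 2183 without 1 library. The calls per list, with the replicate block and without both replicate 1 libraries in that order, were 8 and 7 for other filaments and linkers, 6 and 4 for epithelial junction genes, 9 and 7 for transition factors, 5 and 4 for fibronectin partners, 3 and 3 for fibroblast markers and 6 and 6 for K562 markers. Without 1 library the calls ran from 0 to 1 (other keratins), 1 to 4 (filaments and linkers), 0 to 2 (junction genes), 0 to 3 (transition factors), 1 to 3 (mesenchymal), 1 to 2 (fibronectin partners), 0 to 1 (fibroblast) and 1 to 3 (K562 markers). The transition factors had 0 calls with equal sums and 0 without the intensity trend, and the mesenchymal list 1 at a value of 50 or more. Over all genes 1706 of 16633 tested were called with equal sums and 1599 of 16658 without the trend. At a value of 50 or more 1475 of 13343 were called. Since calls over all genes also changed between settings, nothing is read about a list from its changing counts. The cause of the changes was not tested. The block, a pairing by replicate number, changed the calls of KRT18 and VIM and of no other member. Read depth is unknown, so the limit it sets, above all for genes with low values, was not tested. Having only 3 libraries a genotype is a further limit.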
